A study of Mus musculus with 23 samples.

Results

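Immediate early and AP-1 genes were followed across sorted brain macrophages 1 day after stroke. The members were chosen by gene symbol as Fos, Fosb, Jun, Junb, Jund, Egr1, Atf3, Ier2, Dusp1 and Btg2 and not by a threshold on a measured value, although earlier results of these data were known when the list was made. All 10 were among the 33280 genes of the counts table, and all 10 passed the filter on low counts in every comparison. The lowest count of a member in any library was 144, so no value lay near the limit of detection. Mice of the genotype Ccr2creERT2/+ R26tdT/tdT carry a tamoxifen-dependent Cre recombinase at Ccr2, a chemokine receptor gene of monocytes, and the red reporter tdTomato (tdT), so tdT marks cells that expressed Ccr2 at the time of tamoxifen and their progeny. They were gavaged for 7 days with 200 mg/kg BLZ945, which blocks CSF-1 receptor signalling and thereby removes macrophages from the brain, or with vehicle (CTL). Per the labels, all animals then received tamoxifen at 2 mg per day, a clot was formed with thrombin in the middle cerebral artery 8 weeks later to cause an ischemic stroke, and a coronal slice of the brain without choroid plexus was taken 1 day later. Microglia (MG) were sorted as CD206- cells, and subdural CNS-associated macrophages (sdCAMs), the macrophages of the leptomeninges and perivascular spaces, as CD206+ cells with or without tdT. There were 5 libraries each of MG CTL, MG BLZ945, tdT- CTL and tdT- BLZ945 and 3 libraries of tdT+ BLZ945, named F1, F2, F3, M1 and M2. Every CTL library held 1 animal and every BLZ945 library 2 pooled animals, except those labelled F2, which held 1, and nothing in the labels names other replication, so p-values measure the spread between these libraries. No age was given in the labels. The same label within a treatment names the same animal or pool, and the library names leave it possible that the BLZ945 libraries F2 and M1 share an animal.

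Immediate early genes are transcribed within minutes of a stimulus from transcription factors that are already present, before new protein is made. The AP-1 transcription factor is a dimer in which a Fos protein pairs with a Jun protein, or Jun proteins pair with each other, and it passes signals of MAP kinases to target genes. Tissue digestion and sorting are themselves stimuli known to induce these genes in brain macrophages. All 23 libraries came from digested tissue and sorted cells, and no library of undisturbed tissue was analysed here, so induction in the animal and during preparation cannot be told apart. The study's reporting notes state that immediate early genes were left out of its own bulk RNA-seq analysis, while the counts table still holds them.

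Total counts lay between 9433960 and 13276081 per library. MG markers (6 genes such as P2ry12 and Tmem119) summed to 17103 to 26107 counts per 1e6 counts of the library, scaled by TMM (CPM), in MG and to 1152 to 2355 CPM in sdCAM libraries, and sdCAM markers (6 genes such as Mrc1, which encodes CD206) to 6.63 to 45.8 and 8836 to 14913 CPM. The labelled cell types thus matched their markers in all 23 libraries. Monocyte markers (6 genes) summed to 3.73 to 45.8 CPM in all libraries except tdT- BLZ945 F1, where they reached 233 CPM, and tdT- BLZ945 M1, which lay between. Their part in the results was not tested. Neuron markers (4 genes) summed to 4.60 to 12.2 CPM in MG and 38.1 to 111 CPM in sdCAMs, and astrocyte markers (4 genes) to 1.95 to 8.04 and 35.98 to 248 CPM. Dendritic cell markers (4 genes) summed to 2.46 to 8.86 CPM in MG, to 222 to 782 CPM in tdT- CTL and to 30.9 to 160 CPM in the BLZ945 sdCAMs, without overlap between tdT- CTL and tdT- BLZ945. Mural and fibroblast markers (6 genes) summed to 1.27 to 19.8 CPM in MG and 21.7 to 69.5 CPM in sdCAMs, and neutrophil markers (6 genes) to 152 to 244 and 36.6 to 126 CPM. These 5 lists moved with the difference between sdCAMs and MG, and their part in it was not tested. By the study's methods the sort took CD45+ CD11b+ cells negative for Ly6C, Ly6G and CD11c, surface proteins of monocytes, neutrophils and dendritic cells.

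The sequences before the start sites of Fos, Fosb, Dusp1 and Junb are shown because these genes, with Egr1, passed the test between sdCAMs and MG described below. The windows hold the 250 bases before the start in RefSeq (build GRCm38.p6), 5' to 3' on the gene's strand, and entries were found for 8 of the 10 members, all except Egr1 and Ier2. Capitals mark the core TGACG of cyclic AMP response elements, read on either strand, and GCGGGGGCG, a binding motif of Egr proteins.
Fos (chr12:85473640-85473889, plus strand): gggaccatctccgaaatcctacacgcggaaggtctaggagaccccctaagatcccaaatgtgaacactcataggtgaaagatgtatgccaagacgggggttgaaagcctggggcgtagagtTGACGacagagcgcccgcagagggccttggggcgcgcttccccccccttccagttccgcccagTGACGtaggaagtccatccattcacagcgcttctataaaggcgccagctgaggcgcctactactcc
Fosb (chr7:19310046-19310295, minus strand): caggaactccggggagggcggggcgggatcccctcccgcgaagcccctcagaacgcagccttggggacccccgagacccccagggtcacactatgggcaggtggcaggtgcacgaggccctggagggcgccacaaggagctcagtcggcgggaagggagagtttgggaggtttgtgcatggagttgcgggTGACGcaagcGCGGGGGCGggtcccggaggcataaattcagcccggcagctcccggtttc
Dusp1 (chr17:26508473-26508722, minus strand): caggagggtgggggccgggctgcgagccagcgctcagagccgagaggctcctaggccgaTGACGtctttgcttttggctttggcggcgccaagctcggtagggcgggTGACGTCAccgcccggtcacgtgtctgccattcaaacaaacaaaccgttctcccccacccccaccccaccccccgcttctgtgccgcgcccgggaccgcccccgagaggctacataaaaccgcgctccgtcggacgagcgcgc
Junb (chr8:84978749-84978998, minus strand): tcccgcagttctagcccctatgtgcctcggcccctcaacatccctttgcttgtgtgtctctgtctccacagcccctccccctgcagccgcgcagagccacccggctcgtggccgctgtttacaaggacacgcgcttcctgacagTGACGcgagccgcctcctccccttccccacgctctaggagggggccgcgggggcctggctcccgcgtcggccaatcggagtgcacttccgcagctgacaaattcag
The core TGACG, a motif added after the sequences were seen, was present on at least 1 strand in 6 of the 8 members' windows, against 17.8% of 32851 windows in the table. The full palindrome TGACGTCA, which contains that core, stood in 2 windows, those of Dusp1 and Btg2, against 1.55% of all. GCGGGGGCG stood in 1 window, that of Fosb, against 2.57%. The AP-1 motif TGAGTCA or its reverse complement TGACTCA was in 0 of the 8 windows (4.46% of all), and the CArG box of serum response factor was also in 0 (1.47% of all). Sites farther than 250 bases before the start, and any of Egr1 and Ier2, were not looked at. The absence of a motif here therefore does not show that a gene lacks it. A match is a description of letters and was not tested against binding.

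The first question was how the members' levels compared between sdCAMs and MG of the same brains. The tests used the group alone and left this pairing out, except where a block for the animal is named. Fos, Fosb and Dusp1 were higher in sdCAMs than in MG, with ratios of the mean CPM of 3.42, 4.80 and 4.05 for tdT- cells of CTL animals, 2.27, 4.67 and 2.44 for tdT- cells of BLZ945 animals and 2.35, 6.89 and 2.80 for tdT+ cells against MG BLZ945. Junb and Egr1 were lower in tdT- BLZ945 sdCAMs than in MG BLZ945. Jun, Atf3 and Ier2 stood at nearly the same mean level in tdT- CTL sdCAMs and in MG CTL. The set therefore did not move as a block between the populations, although most pairs of its members were positively correlated across libraries within them.

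Fos, whose protein is the principal partner of Jun in AP-1, had the largest difference in level between the populations. In MG it was at 1682, 1767, 3348, 3312 and 2144 CPM in CTL libraries F1, F2, F3, M1 and M2, and at 3475, 1853, 3364, 2943 and 3885 CPM in the BLZ945 libraries in the same order. In tdT- sdCAMs it was at 7725, 9150, 11389, 10020 and 3652 CPM in CTL and at 7175, 3649, 9251, 8376 and 6821 CPM in BLZ945 libraries, and in tdT+ sdCAMs at 2617 (F2), 9933 (F3) and 9374 CPM (M2). Every tdT- CTL library lay above every MG CTL library, and the sdCAM libraries that came down to the MG range were CTL M2 and both of BLZ945 F2. The mean was 8387 ± 2963 CPM (SD, n = 5) in tdT- CTL and 2451 ± 822 CPM (SD, n = 5) in MG CTL. In edgeR's quasi-likelihood test with Benjamini-Hochberg adjustment the log2 fold change was 1.77 (SE 0.29, adjusted p = 6.74e-05). It was 1.195 (SE 0.29, adjusted p = 0.00266) for tdT- against MG in BLZ945 animals and 1.25 (SE 0.37, adjusted p = 0.0264) for tdT+ BLZ945 against MG BLZ945. The tdT+ call was lost in some fits that left out 1 library, given below.

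Dusp1, a phosphatase that switches off MAP kinases and so closes the loop that induces these genes, followed Fos. Its MG levels were 743, 725, 1349, 1321 and 821 CPM in CTL libraries F1, F2, F3, M1 and M2, and 1585, 1044, 1580, 1408 and 1878 CPM in BLZ945 libraries. Its tdT- levels were 3870, 4484, 5705, 4697 and 1308 CPM in CTL and 3462, 1938, 4827, 3748 and 4294 CPM in BLZ945 libraries, and its tdT+ levels 1641 (F2), 6178 (F3) and 4757 CPM (M2). All 5 tdT- BLZ945 libraries exceeded all MG BLZ945 libraries, and in CTL animals only tdT- M2 fell into the MG range. The log2 fold changes in edgeR's test were 2.01 (SE 0.31, adjusted p = 2.66e-05) in CTL animals, 1.296 (SE 0.30, adjusted p = 0.00201) in BLZ945 animals and 1.496 (SE 0.34, adjusted p = 0.00638) for tdT+ against MG BLZ945. The tdT+ call was lost without tdT+ F3, as given below.

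Fosb, the second Fos family member and the one with the lowest level, differed most. It was at 20.04, 12.5, 39.5, 67.3 and 19.8 CPM in MG CTL libraries F1, F2, F3, M1 and M2 and at 26.8, 21.5, 22.5, 27.7 and 33.6 CPM in MG BLZ945. In tdT- sdCAMs it was at 115, 140, 290, 171 and 46.5 CPM in CTL and at 149, 62.8, 158, 110 and 137 CPM in BLZ945 libraries, and in tdT+ sdCAMs at 36.2 (F2), 247 (F3) and 262.5 CPM (M2). Both BLZ945 sdCAM groups lay wholly above MG BLZ945, while in CTL animals the highest MG library, M1, exceeded the lowest tdT- library, M2. The log2 fold changes were 2.25 (SE 0.42, adjusted p = 3.08e-04) in CTL animals, 2.23 (SE 0.42, adjusted p = 3.16e-04) in BLZ945 animals and 2.80 (SE 0.45, adjusted p = 4.33e-04) for tdT+ against MG BLZ945.

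Junb, a Jun family partner of Fos proteins, had the opposite order. MG CTL libraries F1, F2, F3, M1 and M2 held 3041, 2310, 3075, 3330 and 2970 CPM, and MG BLZ945 libraries 2651, 3067, 3065, 3122 and 3147 CPM. The tdT- libraries held 1782, 2057, 2651, 2681 and 1596 CPM in CTL and 1359, 951, 2578, 2499 and 2086 CPM in BLZ945 animals, and the tdT+ libraries 801 (F2), 2137 (F3) and 2540 CPM (M2). The BLZ945 sdCAM libraries were all below the MG BLZ945 libraries, and in CTL animals the groups overlapped. In edgeR's test Junb was lower in tdT- BLZ945 than in MG BLZ945 by 0.66 on the log2 scale (SE 0.21, adjusted p = 0.0197). The call was lost without tdT- BLZ945 library F1 (log2 fold change -0.56, adjusted p = 0.0516), without all BLZ945 F2 libraries (-0.48, adjusted p = 0.059) and in a model of all 23 libraries (-0.67, adjusted p = 0.0502). In CTL animals the log2 fold change was -0.46 (SE 0.21, adjusted p = 0.121), and it passed when the BLZ945 F2 libraries were left out of the fit (-0.46, adjusted p = 0.0463) or library totals replaced TMM (-0.58, adjusted p = 0.0427). It was -0.71 (SE 0.35, adjusted p = 0.178) for tdT+ against MG BLZ945.

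Egr1, a zinc-finger transcription factor induced beside Fos, was also lower in sdCAMs. Its levels were 2443, 2023, 3259, 2752 and 2174 CPM in MG CTL libraries F1, F2, F3, M1 and M2 and 2727, 2333, 2446, 4088 and 4007 CPM in MG BLZ945. They were 1838, 1927, 2302, 1931 and 844 CPM in tdT- CTL, 1760, 1233, 1882, 1780 and 1915 CPM in tdT- BLZ945 and 604 (F2), 1753 (F3) and 2534 CPM (M2) in tdT+ BLZ945. All tdT- BLZ945 libraries lay below all MG BLZ945 libraries, whereas the CTL groups overlapped through tdT- F3. In edgeR's test Egr1 was lower in tdT- BLZ945 than in MG BLZ945 by 0.85 on the log2 scale (SE 0.22, adjusted p = 0.00495). In CTL animals the log2 fold change of -0.52 (SE 0.22) gave an adjusted p = 0.087 in edgeR's test, and with each animal as a block -0.57 (SE 0.16, adjusted p = 0.0205). For tdT+ against MG BLZ945 it was -0.92 (SE 0.35, adjusted p = 0.0804), and with the block -1.01 (SE 0.26, adjusted p = 0.0228). Egr1 also passed without tdT- CTL F3 in the former comparison (adjusted p = 0.0455), and without tdT+ M2 (adjusted p = 0.0206) or in a model of all 23 libraries (adjusted p = 0.041) in the latter.

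The other members gave no call in these tests. Jun, the core AP-1 subunit, ranged from 2435 to 3872 CPM over the 10 MG libraries and from 1002 to 4283 CPM over the 13 sdCAM libraries. Jund, the Jun family member with the steadiest expression in most cells, ranged from 340 to 634 CPM in MG and from 250 to 789 CPM in sdCAMs, with a log2 fold change of 0.35 (SE 0.22, adjusted p = 0.28) in CTL animals. Atf3, a stress-induced factor of the ATF family that can pair with Jun proteins, ranged from 195 to 847 and from 56.4 to 924 CPM. Ier2, an early-response gene whose product acts in the nucleus, ranged from 1259 to 1974 and from 547 to 2001 CPM. Btg2, an antiproliferative gene, ranged from 1545 to 2291 and from 442 to 2438 CPM, and its log2 fold change of -0.62 in BLZ945 animals passed the threshold with the animal block alone (SE 0.21, adjusted p = 0.0405). Within animals, tdT- exceeded MG for Fos, Fosb and Dusp1 in 5 of 5 CTL and 5 of 5 BLZ945 animals or pools, and MG exceeded tdT- for Junb, Egr1 and Btg2 in the same numbers.

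**Figure D1:**
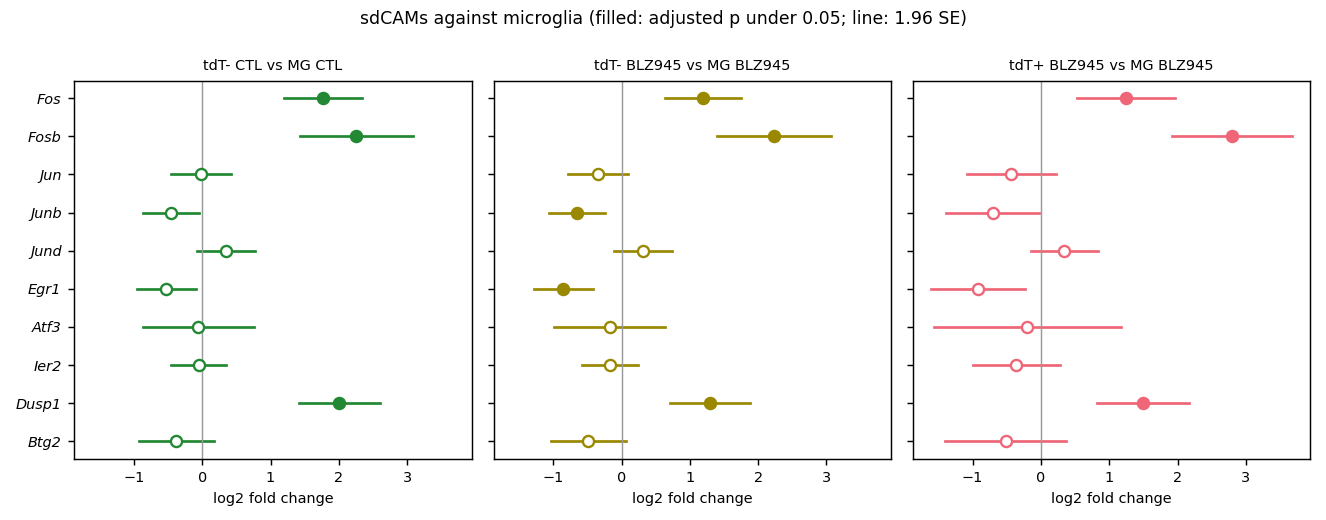
Log2 fold change of each member in tdT- CTL against MG CTL, tdT- BLZ945 against MG BLZ945 and tdT+ BLZ945 against MG BLZ945. Points are edgeR estimates, lines are 95% intervals from the SE, and filled points passed an adjusted p of 0.05; Fos, Fosb and Dusp1 are filled on the right in all 3 panels, and Junb and Egr1 on the left in the middle panel.

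The members' counts read against all genes as follows. In CTL animals 3 of 10 members were called, all higher in sdCAMs, where 25.6% of 12697 genes were called, and 1 member (Fos) did not overlap between the groups, where 26.8% of genes did not. In BLZ945 animals 5 were called, 3 higher and 2 lower, against 32.4% of all genes, and 4 did not overlap against 22%. For tdT+ BLZ945 against MG BLZ945, 3 were called, all higher, against 18.9% of 12868 genes, and 2 (Fosb and Junb) did not overlap against 34.8%. The median log2 fold change of the members was -0.03, -0.17 and -0.28 in these comparisons, against -0.007, -0.02 and -0.01 for all genes tested.

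Leaving out the 3 sdCAM libraries with the lowest members (tdT- CTL M2, tdT- BLZ945 F2 and tdT+ BLZ945 F2), a choice made after the values were seen, added Jund to the calls. Its log2 fold changes in edgeR's test were then 0.51 (adjusted p = 0.0164) in CTL animals, 0.42 (adjusted p = 0.0415) in BLZ945 animals and 0.66 (adjusted p = 0.00196) for tdT+ against MG. The share of all genes called in these fits was not compared, so this is not read as a gain of the members. For tdT+ against MG BLZ945, the Fos call was lost without MG library F1, F2 or M1 and without tdT+ library F3 or M2. Its log2 fold change was then between 0.96 and 1.25 (adjusted p between 0.0537 and 0.137 in edgeR's test). The Dusp1 call of that comparison was lost without tdT+ F3 (log2 fold change 1.1, adjusted p = 0.0551). In both tdT- comparisons the Fos and Dusp1 calls passed in each fit that left out 1 library. Fosb passed in each of the fits that left out 1 library.

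Compared per length of exon, a scale on which genes can be set beside each other, the order of the members also differed. Lengths came from GENCODE M21, which may differ from the annotation used for counting. In MG CTL, Junb stood highest at 1280 ± 165 CPM per kb (SD, n = 5), followed by Fos at 1042 ± 349, Jun at 1017 ± 133 and Ier2 at 986 ± 137, whose spreads overlap. Dusp1 was at 300 ± 95.3 and Fosb at 5.10 ± 3.56 CPM per kb. In tdT- CTL, Fos stood at 3566 ± 1260 CPM per kb (SD, n = 5), above Dusp1 at 1212 ± 498, Jun at 1012 ± 301, Ier2 at 955 ± 271.7 and Junb at 936 ± 216, and Fosb at 24.4 ± 14.3 was still the lowest.

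The make-up of AP-1 transcripts separated all MG from all sdCAM libraries, while each member taken alone overlapped between them. The measure was the share of Fos and Fosb in the summed CPM per kb of Fos, Fosb, Jun, Junb and Jund. Among MG it was 28.5% ± 5.62 for CTL and 34.2% ± 5.88 for BLZ945 (SD over 5 libraries each). Among sdCAMs without the reporter it was 59.98% ± 5.17 for CTL and 61.9% ± 1.99 for BLZ945 (SD over 5 libraries each), and the 3 libraries with it had 62.3% ± 4.29 (SD). The 10 MG libraries lay between 20.7% and 38.9% and the 13 sdCAM libraries between 52.6% and 66.5%, with no overlap. The 3 sdCAM libraries in which the members were low gave 52.6%, 61.5% and 57.9%, above every MG library. The ratio of Fos to Junb in CPM ran from 0.553 to 1.31 in MG and from 2.29 to 5.28 in sdCAMs, and that of Dusp1 to Egr1 from 0.304 to 0.646 and from 1.55 to 3.52. These ratios were formed after the single genes were seen and carry no test. In bulk libraries, a larger share of cells with high expression and a higher level per cell cannot be told apart.

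**Figure D2:**
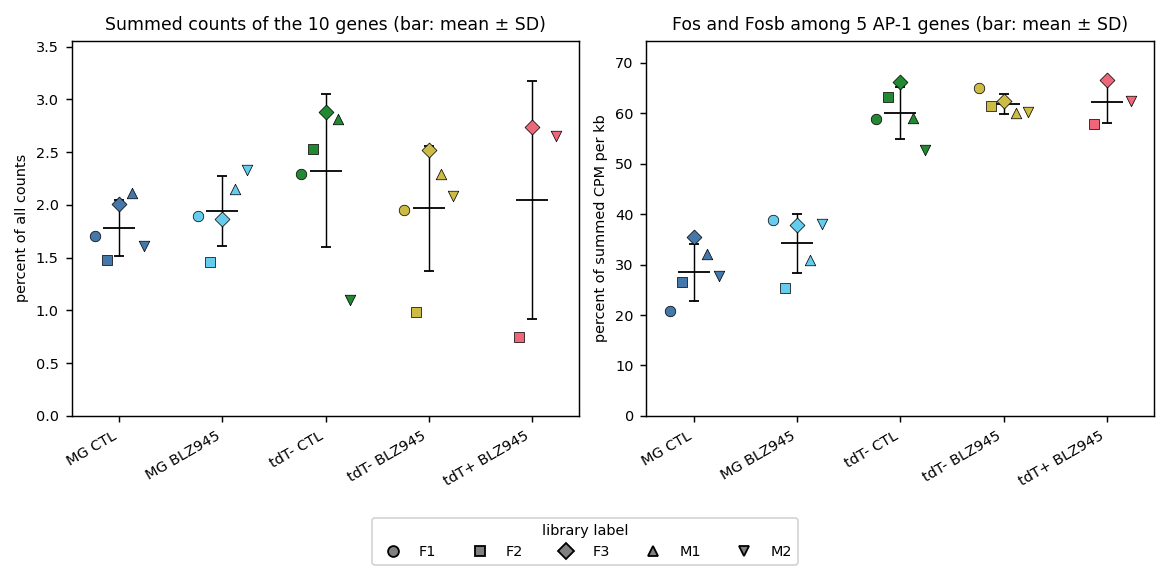
Left, summed counts of the 10 members as percent of all counts of a library. Right, Fos and Fosb as percent of the summed CPM per kb of Fos, Fosb, Jun, Junb and Jund. Each symbol is a library, its shape gives the library label, and bars are mean ± SD of the group; on the left the groups overlap, with tdT- CTL M2 and the F2 sdCAM libraries lowest, and on the right all sdCAM libraries lie above all MG libraries.

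The next question was whether sdCAMs and MG that had repopulated after BLZ945 differed from those of CTL animals. No member was called in either population. In MG, 0 of 10 members passed the threshold in edgeR's test with 1 at an unadjusted p below 0.05, against 0.408% of 11264 genes called, and DESeq2 also called 0. That member was Dusp1, at 1499 ± 305 CPM (SD, n = 5) in MG BLZ945 and 992 ± 315 CPM (SD, n = 5) in MG CTL, with a log2 fold change of 0.58 (SE 0.19, adjusted p = 0.203). Without the filter on low counts its adjusted p was 0.0313, the only setting tried under which a member was called here. Fos had a log2 fold change of 0.33 (SE 0.21, adjusted p = 0.553) and Egr1 of 0.29 (SE 0.17, adjusted p = 0.511). The BLZ945 and CTL libraries overlapped for all 10 members, where 3.09% of genes did not overlap. The median of the members was 0.06 and that of all genes 0.0002.

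In tdT- sdCAMs, 0 of 10 members passed for BLZ945 against CTL in edgeR's test, with 0 at an unadjusted p below 0.05, and DESeq2 called 0. Here 0% of 13076 genes were called, and 1.84% did not overlap, against 0 members. Jun had the difference farthest from 0, 2378 ± 737 against 3226 ± 959 CPM (SD, n = 5 each), with a log2 fold change of -0.42 (SE 0.31, adjusted p = 0.998). The 95% interval of the Fos difference, from its SE, ran from -0.92 to 0.45 and that of Atf3 from -1.29 to 0.98. The BLZ945 effect in tdT- sdCAMs minus that in MG was negative for all 10 members in edgeR, although Fosb stood at 0.0017 in DESeq2, with a median of -0.16 against -0.03 for all genes, and 0 passed the test of the difference in edgeR (0 at an unadjusted p below 0.05, DESeq2 0), where 0.0394% of genes were called. Dusp1 came nearest at -0.71 (SE 0.42, adjusted p = 0.674), followed by Fos at -0.57 (SE 0.40, adjusted p = 0.736). The members move together across libraries, so 10 equal signs are not 10 independent observations.

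The sdCAMs with and without the reporter were compared next. The reporter was the only mark of origin used. Whether tdT- cells of BLZ945 animals included unmarked progeny of Ccr2-expressing cells was not tested. The tdT+ cells, derived from Ccr2-expressing cells, and the tdT- cells of BLZ945 animals gave 0 calls among the 10 members in edgeR's test (0 at an unadjusted p below 0.05, DESeq2 0), against 0.206% of all genes, and 0 members did not overlap against 3.4%. Fos averaged 7308 ± 4072 CPM (SD, n = 3) with the reporter and 7054 ± 2135 CPM (SD, n = 5) without it, a log2 fold change of 0.04 with an interval of -0.75 to 0.83. In this fit, which held no animal block, Fosb had the difference farthest from 0, 0.55 (interval -0.51 to 1.62, adjusted p = 0.963 in edgeR's test). With the animal as block it was 0.27 (SE 0.35). Within the 3 animals or pools with both libraries, the mean log2 ratio was 0.2645 for Fosb and -0.2697 for Ier2, so that rank depended on the fit. Against tdT- CTL the tdT+ cells also gave 0 calls (0 at an unadjusted p below 0.05, DESeq2 0), where 0.283% of genes were called, and 0 members without overlap where 8.16% of genes had none. Both comparisons share the tdT+ libraries, and with 3 of them the interval of Atf3 against tdT- BLZ945, for example, ran from -1.35 to 1.27. These intervals come from fits without the animal as block. With that block the SE of Fos against tdT- BLZ945 was 0.175, against 0.403 without it.

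**Figure D3:**
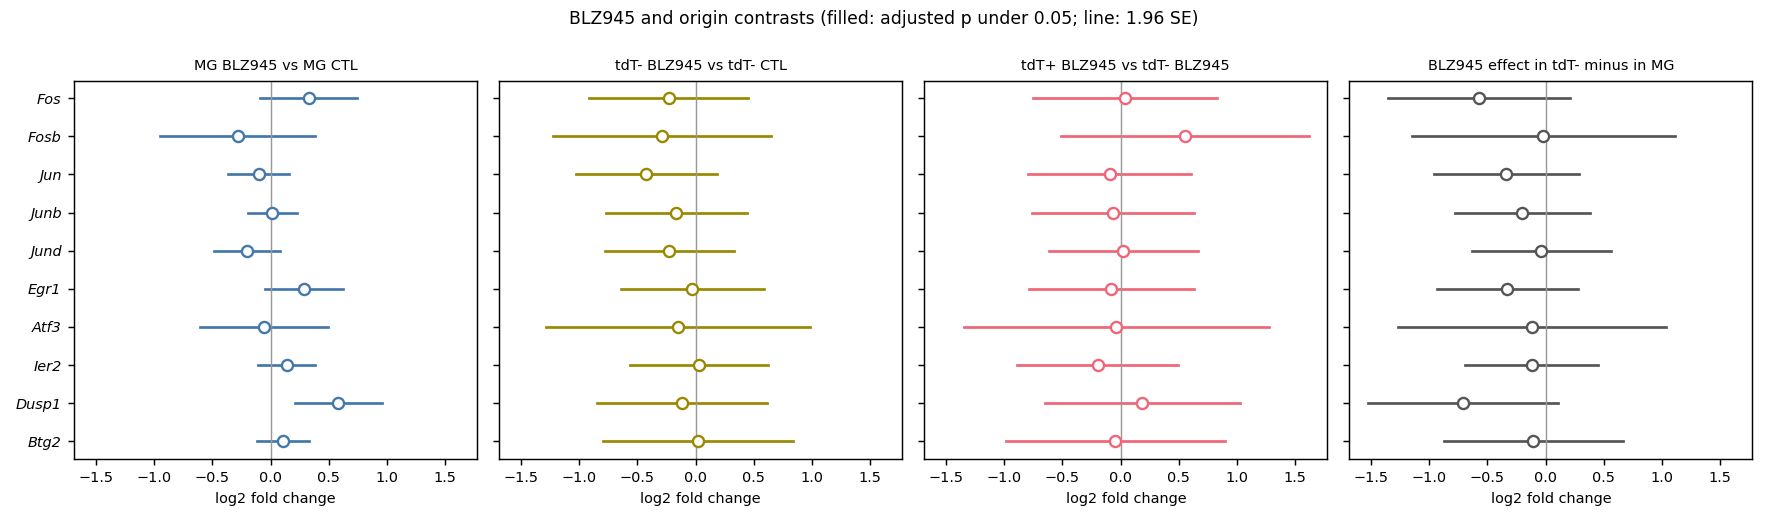
Log2 fold change of each member for BLZ945 against CTL in MG and in tdT- sdCAMs, for tdT+ against tdT- BLZ945 sdCAMs, and for the BLZ945 effect in tdT- sdCAMs minus that in MG. Points are edgeR estimates, lines are 95% intervals from the SE, and open points did not pass an adjusted p of 0.05; all points are open, and Dusp1 in MG is the only line clear of 0.

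**Figure D4:**
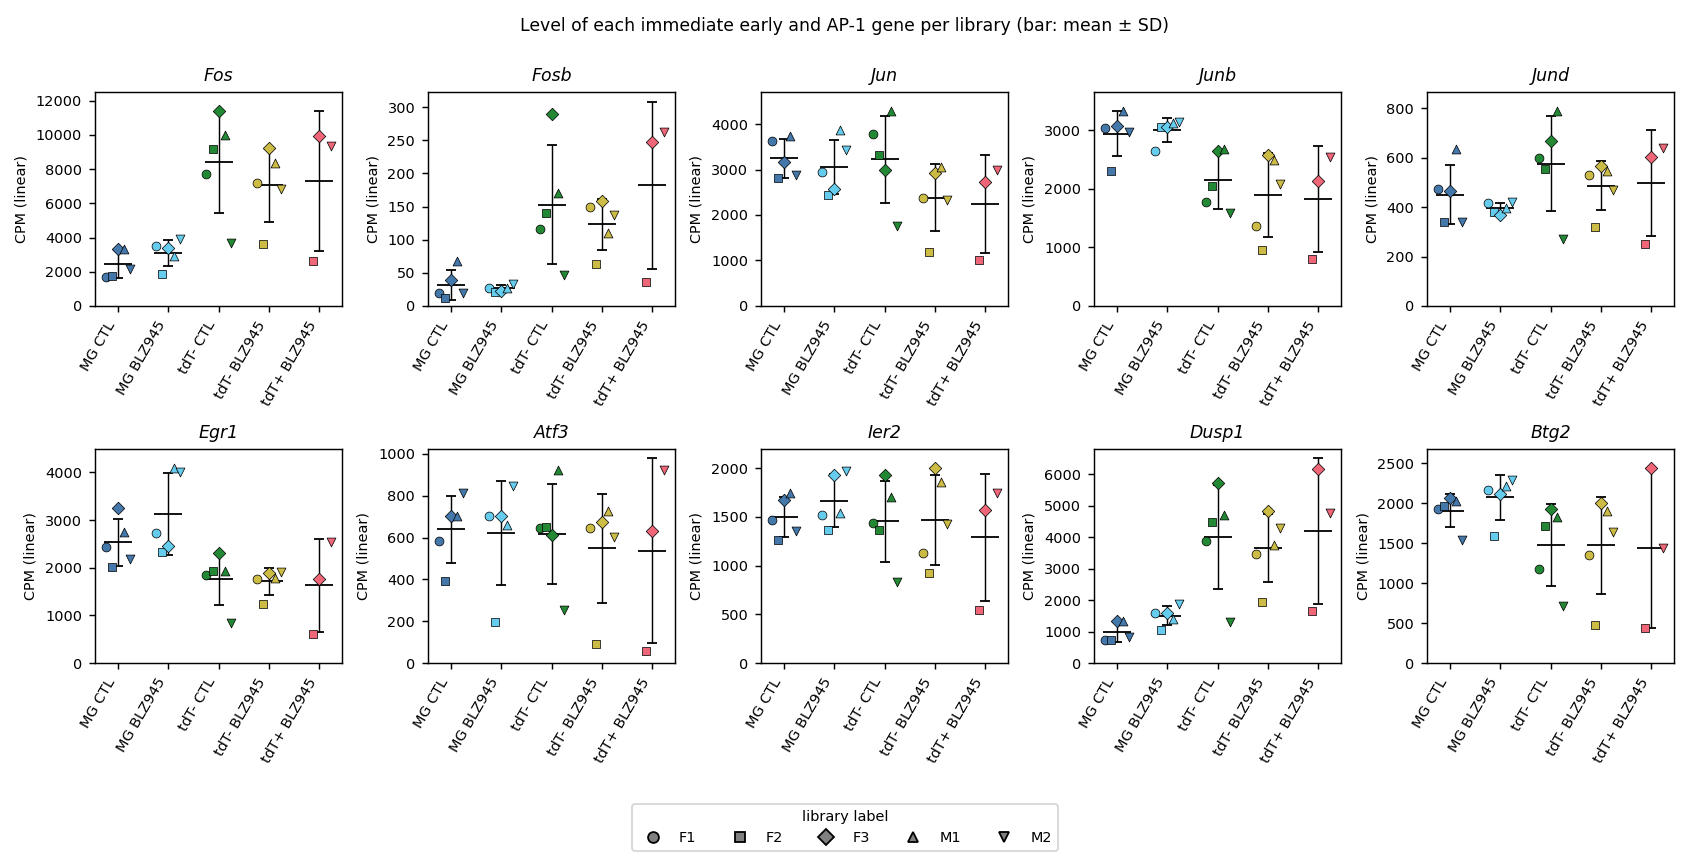
CPM of each member in every library on a linear axis from 0, by group, with the symbol giving the library label and bars showing mean ± SD. For Fos, Fosb and Dusp1 the sdCAM groups stand above MG, and tdT- CTL M2 and the F2 libraries of the BLZ945 sdCAM groups sit at the bottom of their groups for every gene.

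Together the 10 genes took 1.78% ± 0.268 of all counts for CTL and 1.94% ± 0.328 for BLZ945 among MG (SD over 5 libraries each). For sdCAMs without the reporter the shares were 2.32% ± 0.725 for CTL and 1.97% ± 0.591 for BLZ945 (SD over 5 libraries each), and for the 3 libraries with it 2.05% ± 1.13 (SD). Among sdCAMs, tdT- CTL M2 (1.096%, exact 95% binomial interval 1.09 to 1.102%), tdT- BLZ945 F2 (0.981%, 0.975 to 0.987%) and tdT+ BLZ945 F2 (0.747%, 0.742 to 0.752%) were lowest, and the other 10 sdCAM libraries lay between 1.955% and 2.88%. These intervals cover counting error only. The coefficient of variation of the members had a median of 22.3% for CTL and 18.9% for BLZ945 among MG, where the 1862 genes with a mean of at least 100 CPM had medians of 11.3% and 11.9%. Not every member varied this much among MG, where Btg2 for CTL (10.96%) and Junb (6.79%) and Jund (5.65%) for BLZ945 lay below those medians. Without the reporter sdCAMs had 34.03% for CTL and 31.0% for BLZ945, against 15.8% and 21.6%, and with it 55.5% against 19%. These medians depended on 1 library per group. Without tdT- CTL M2, tdT- BLZ945 F2 and tdT+ BLZ945 F2, left out after their low levels were seen, the medians of the members were 16.2%, 14.5% and 9.68% (n = 4, 4 and 2), against 14.1%, 16.3% and 12.9% for all genes of that level, and without F2 that of MG BLZ945 was 11.7% against 10.7%.

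The low libraries were low for all members at once. Each of tdT- CTL M2, tdT- BLZ945 F2 and tdT+ BLZ945 F2 had the lowest level of its group for 10 of 10 members. The MG BLZ945 library of the same F2 label was lowest in its group for 8 of 10 members, whereas the MG library of CTL M2 was lowest for 2. Against the median of the other libraries in its group, tdT+ BLZ945 F2 was lower by 2.49-fold for Jund up to 13.8-fold for Atf3, tdT- BLZ945 F2 by 1.49-fold for Egr1 up to 7.45-fold for Atf3, and tdT- CTL M2 by 1.47-fold for Junb up to 3.51-fold for Dusp1.

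Atf3 had the highest coefficient of variation of the members in the 3 BLZ945 groups (40.0%, 47.6% and 82.2% for MG, tdT- and tdT+), and Fosb had it in the CTL groups (69.8% for MG and 58.7% for tdT-). Atf3 was at 581, 394, 704, 702 and 815 CPM in MG CTL libraries F1, F2, F3, M1 and M2 and at 703, 195, 703, 661 and 847 CPM in MG BLZ945. In tdT- sdCAMs it was at 647, 651, 611, 923 and 255 CPM in CTL and at 646, 88.6, 674, 729 and 602 CPM in BLZ945, and in tdT+ sdCAMs at 56.4 (F2), 629 (F3) and 924 CPM (M2). The F2 label of the BLZ945 arm thus had the lowest Atf3 in all 3 of its libraries, and the rank of Atf3 rested on it. Without F2 the coefficient of variation of Atf3 was 11.2% in MG BLZ945, 7.99% in tdT- BLZ945 and 26.8% in tdT+ BLZ945, below those of Egr1 (25.7%), Junb (26.2%) and Btg2 (36.7%) in the same groups. The group means differed little between populations.

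**Figure D5:**
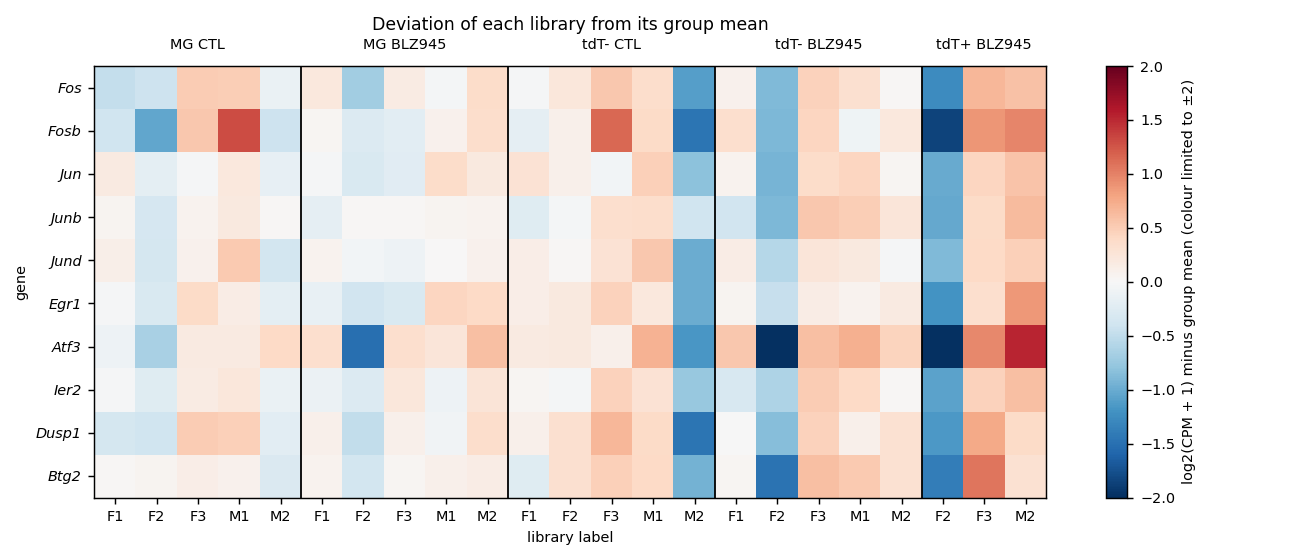
Heat map of log2(CPM + 1) minus the mean of the library's group, with members in rows and the 23 libraries in columns, and colours limited to 2 log2 units. Blue columns mark libraries in which nearly all members were low; they are tdT- CTL M2, tdT- BLZ945 F2, tdT+ BLZ945 F2 and, less deeply, the MG F2 libraries.

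After the group means were subtracted, all 45 pairs of members were positively correlated over the 23 libraries, with Pearson's r between 0.758 (Fosb and Atf3) and 0.968 (Fos and Dusp1), a median of 0.863 and a median Spearman's rho of 0.758. Over all pairs of the 1862 genes with at least 100 CPM the median r was 0.005 and 8.7% of pairs exceeded 0.5. Within the 10 MG libraries the members' median was 0.601, with 31 of 45 pairs above 0.5 against 14.7% of all gene pairs there, and r ran from -0.0171 (Junb and Btg2, the one negative pair) to 0.983 (Fos and Dusp1). In the 13 sdCAM libraries the median was 0.909, with 45 of 45 pairs above 0.5 against 13.1% of all gene pairs, and in the 10 of them without the low libraries 0.586. The libraries of 1 animal share a brain and its preparation and so are not independent, and these values are descriptions.

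Libraries of the same animal or pool deviated alike. The mean deviation of the members had the same sign in the MG and tdT- libraries in 8 of 10 animals or pools, with r = 0.651 and rho = 0.685, and r = 0.655 without the 2 farthest from the median of MG. For single genes r ran from 0.283 (Junb) to 0.943 (Btg2). Without the 2 animals farthest from the median of that gene it was lower for 6 members, among them Btg2 at 0.423, Jund (0.672 to 0.197) and Atf3 (0.695 to -0.0917), and higher for 4, Fosb (0.462 to 0.762), Ier2 (0.662 to 0.733), Junb (0.283 to 0.378) and Egr1 (0.467 to 0.505). The animals left out were CTL M2 and BLZ945 F2 for Btg2, CTL M1 and CTL M2 for Jund and CTL F2 and BLZ945 F2 for Atf3, and the relations of these 3 genes rested on them. The tdT- and tdT+ libraries of the 3 animals or pools with both had the same sign in 3 of 3. The members' mean deviation had r = -0.131 with the log2 total counts and r = 0.139 with the number of genes detected, and between -0.241 and 0.244 with the summed levels of the cell type marker lists, the lowest for MG and the highest for oligodendrocyte markers.

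Other genes of the early response moved with the members. Of 27 further early-response genes, 18 had r above 0.5 with the members' mean, with a median of 0.697, and of 11 inflammatory early genes 10 did, with a median of 0.649. Across 7212 other genes the median was 0.007 and 7.99% exceeded 0.5. Zfp36, which encodes a protein that destabilises AU-rich mRNAs, reached 0.961 and Nfkbiz, an atypical I kappa B protein, 0.936. The AP-1 relatives (10 genes), the upstream regulators (13 genes such as Srf and MAP kinases) and the heat shock genes (7 genes) had medians of -0.01, -0.06 and -0.10, with 1, 3 and 2 genes above 0.5. Outside all lists, the 5 genes with the pattern most like that of the members were Btg1 (r = 0.888), Nfkbid (0.886), Mcl1 (0.85), Nlrp3 (0.84) and Ets2 (0.822). Without the 3 low sdCAM libraries their values were between 0.618 and 0.744.

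Genes of the wider lists were set against the 25.6%, 32.4% and 18.9% of all genes called for tdT- against MG in CTL animals, in BLZ945 animals and for tdT+ against MG BLZ945. Of 26 tested early-response genes, 10 rose and 5 fell in tdT- CTL against MG CTL, with a median log2 fold change of 0.33, and in BLZ945 animals 8 rose and 7 fell with a median of 0.04. Ccn1, a secreted matricellular protein, was at 418 CPM in tdT- CTL and 0.979 CPM in MG CTL (log2 fold change 8.71, SE 0.70, adjusted p = 2.71e-09). Rhob, a small GTPase, fell by 1.63 (SE 0.16, adjusted p = 3.55e-08) and Ier5 by 1.58 (SE 0.16, adjusted p = 1.04e-07). For tdT+ against MG BLZ945, 4 of 27 rose and 4 fell, with a median of -0.02.

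Of 11 inflammatory early genes tested, 1 rose and 6 fell in CTL animals, with a median log2 fold change of -0.81, 1 rose and 8 fell in BLZ945 animals (median -1.17), and 1 rose and 4 fell for tdT+ against MG BLZ945 (median -0.86). Il1a, the cytokine interleukin-1 alpha, fell by 6.11 (SE 0.65, adjusted p = 1.97e-07) and the chemokine Ccl4 by 2.86 (SE 0.33, adjusted p = 7.16e-07) in CTL animals, while Cxcl2, a neutrophil chemoattractant, rose by 3.99 (SE 0.52, adjusted p = 3.86e-06). Il1a was at 5.43 CPM in tdT- CTL and 379 CPM in MG CTL.

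Of the AP-1 relatives, 3 of 9 tested rose and 2 fell in CTL animals, 3 rose and 3 fell in BLZ945 animals, and 3 rose and 0 fell for tdT+ against MG BLZ945. Fosl2, a further Fos family gene, rose by 1.47 in CTL animals (SE 0.25, adjusted p = 8.88e-05) and by 1.42 in BLZ945 animals (SE 0.25, adjusted p = 1.20e-04), from 11.3 to 31.4 CPM in the former. Of 13 upstream regulators, 0 rose and 1 fell, 1 rose and 2 fell, and 0 rose and 0 fell (1 at an unadjusted p below 0.05) in the 3 comparisons. Map2k1, a MAP kinase kinase, was the one that fell in CTL animals, by 0.64 (SE 0.22, adjusted p = 0.0337). Of 7 heat shock genes, 0 were called in CTL animals (1 at an unadjusted p below 0.05), 1 rose and 2 fell in BLZ945 animals, and 1 rose for tdT+ against MG BLZ945. The share called was below that of all genes in each of the 3 comparisons for upstream regulators, and for heat shock genes it was above it in BLZ945 animals, with 3 of 7, and below it in the other two. No gene of these lists was called for BLZ945 against CTL in MG or tdT- sdCAMs, for tdT+ against tdT- sdCAMs or for the difference of the BLZ945 effects in edgeR's test, where each list held between 0 and 4 genes at an unadjusted p below 0.05. Ccn1 did not pass for tdT+ against tdT- BLZ945 sdCAMs but had group means of 10.6 and 359 CPM there, without overlap (log2 fold change -5.10, 95% interval -7.215 to -2.983, adjusted p = 0.0946), and against the 418 CPM of tdT- CTL its log2 fold change was -5.29 (95% interval -7.429 to -3.156, adjusted p = 0.0539).

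The order of the 5 groups by mean level was a description for each member. Of 40 neighbouring steps in these orders, 6 exceeded the larger SD of the 2 groups. They were the steps from tdT- BLZ945 down to MG BLZ945 for Fos and Dusp1 and to MG CTL for Fosb, from MG CTL down to tdT- CTL for Junb and Egr1, and from MG BLZ945 to MG CTL for Dusp1. The other 34 steps lay within that SD, which for every member included all steps among the 3 sdCAM groups that were neighbours.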

How the data were processed

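Bulk RNA of sorted cells was sequenced as full-length, PCR-amplified libraries without molecular identifiers, so counts are of fragments and not of molecules. The deposited values are raw counts per gene, made by the authors with bcl2fastq 2.20, STAR 2.7.11a and featureCounts 2.0.6 per the labels, and DESeq2 1.46.0 is named there for testing. The genome build used for counting could not be settled from the sources, so exon lengths (GENCODE M21, GRCm38) and promoters (RefSeq, GRCm38.p6) may differ from it. The table held 33280 genes, of which 9482 were 0 in all libraries.

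The quasi-likelihood test of edgeR 4.0.16 (R 4.3.3) was run on these counts with TMM scaling, filterByExpr by group and Benjamini-Hochberg adjustment over all genes tested, and calls are genes whose adjusted p was under 0.05. MG were fitted alone for BLZ945 against CTL, the 3 sdCAM groups together for contrasts among sdCAMs, MG with tdT- sdCAMs for contrasts between them, and the 3 BLZ945 groups for tdT+ against MG. These fits held the group only, and a block for the animal or pool was an alternative. DESeq2 1.42.0 was an alternative, and the test was checked on simulated counts. Levels are CPM on TMM-scaled library sizes. Deviations and correlations used log2(CPM + 1) minus the group mean and carry no test. All 10 members were named in every comparison. From each further list at most 3 called genes with the lowest p could be named, and the genes most like the members were the 5 with the highest correlation outside the lists. The members and lists were chosen with earlier results of these data known.

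Libraries with the same label within a treatment came from the same animal or pool by their names, so MG and sdCAM libraries, and tdT+ and tdT- libraries, are paired. Deviations over all genes correlated on average at 0.11 for tdT- and MG in CTL, 0.0817 in BLZ945, 0.131 for tdT+ and MG and 0.0686 for tdT+ and tdT- libraries. Labels shared between treatments name different animals.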

Additional observations from a re-analysis of the deposited data

Results flagged for a closer look

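Dixon's ratio, the gap of the lowest or highest library to its nearest neighbour divided by the range of its group, passed its 95% critical value in 6 of 44 tests over groups of 5 libraries. In independent tests chance passes about 1 in 20. These tests were not independent, because the members move together, their summed share was tested too and libraries share animals. No excess over chance can therefore be read from the number. All 6 were low libraries. The BLZ945 F2 libraries accounted for 4 of them, Atf3 in MG (0.715) and in tdT- sdCAMs (0.802), Btg2 in MG (0.751) and Egr1 in tdT- sdCAMs (0.773). The other 2 were Junb in MG BLZ945 F1 (0.835) and Btg2 in MG CTL M2 (0.726). The BLZ945 F2 libraries held 1 animal where the others of that arm held 2, and the part of pooling in these values was not tested.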

How the results depend on the processing

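Of the calls in the comparison of sdCAMs with MG, those of Fos, Fosb and Dusp1 passed in both tdT- comparisons under every alternative run, and DESeq2 gave the same counts of called members in all 8 comparisons. The count was 5 with library totals in place of TMM for tdT- against MG CTL (3 with TMM; Junb and Egr1 added) and 1 without the filter on low counts for MG BLZ945 against CTL (0 with it; Dusp1 added). For tdT+ against MG BLZ945 it ran from 1 (without tdT+ F3) to 4 when 1 library was left out. With the animal as replicate block the counts were 4, 6 and 4 for tdT- against MG CTL, tdT- against MG BLZ945 and tdT+ against MG BLZ945, and the block changed no other count of members. In these 3 comparisons the block called 3150 of 12697, 4087 of 12697 and 1949 of 12868 genes, against 3254, 4113 and 2429 without it. Over all genes it moved the calls for tdT+ against tdT- BLZ945 from 27 to 6. Labels shared between treatments pair different animals, with a mean correlation of 0.0706 in MG and -0.00065 in tdT- libraries, and that block gave 89 calls in MG against 46. The 2 settings without F2 or low libraries were chosen after the values were seen. All changes of sign listed next concern differences that were not called in the fits reported above, and their cause was not tested.

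With library totals in place of TMM, the log2 fold changes of opposite sign were in MG BLZ945 against CTL Junb -0.00069, and in tdT- BLZ945 against CTL Ier2 -0.032 and Btg2 -0.043. Again with library totals in place of TMM, the log2 fold changes of opposite sign were in tdT+ against tdT- BLZ945 Atf3 0.0019. With at least 10 counts in every library, the log2 fold changes of opposite sign were in tdT- BLZ945 against CTL Btg2 -0.0052. With the replicate block, the log2 fold changes of opposite sign were in tdT- BLZ945 against CTL Ier2 -0.031 and Btg2 -0.14, and in tdT+ BLZ945 against tdT- CTL Dusp1 -0.029. In DESeq2, the log2 fold changes of opposite sign were in tdT+ BLZ945 against tdT- CTL Btg2 0.0033, and in the difference of BLZ945 effects Fosb 0.0017. With DESeq2's size factors in edgeR, the log2 fold changes of opposite sign were in tdT+ BLZ945 against tdT- CTL Btg2 0.0042, and in the difference of BLZ945 effects Fosb 0.0026. Without the BLZ945 F2 libraries, the log2 fold changes of opposite sign were in MG BLZ945 against CTL Atf3 0.17, and in tdT- BLZ945 against CTL Egr1 0.061, Atf3 0.11 and Dusp1 0.032. Again without the BLZ945 F2 libraries, the log2 fold changes of opposite sign were in tdT+ against tdT- BLZ945 Jun 0.097, Junb 0.13, Egr1 0.22, Atf3 0.23, Ier2 0.047 and Btg2 0.17, and in tdT+ BLZ945 against tdT- CTL Fos 0.21, Junb 0.12, Jund 0.12, Egr1 0.28, Atf3 0.34, Ier2 0.20 and Btg2 0.40. Again without the BLZ945 F2 libraries, the log2 fold changes of opposite sign were in the difference of BLZ945 effects Fosb 0.082, Jund 0.066 and Btg2 0.038, and in tdT+ against MG BLZ945 Atf3 0.10. Without the 3 low sdCAM libraries, the log2 fold changes of opposite sign were in tdT+ against tdT- BLZ945 Jun 0.097, Junb 0.13, Egr1 0.22, Atf3 0.23, Ier2 0.048 and Btg2 0.17, and in tdT+ BLZ945 against tdT- CTL Fos 0.017, Junb 0.033, Egr1 0.11, Atf3 0.14, Ier2 0.049 and Btg2 0.22. Again without the 3 low sdCAM libraries, the log2 fold changes of opposite sign were in tdT- against MG CTL Jun 0.13, Atf3 0.13 and Ier2 0.083, and in tdT- against MG BLZ945 Atf3 0.094. Again without the 3 low sdCAM libraries, the log2 fold changes of opposite sign were in tdT+ against MG BLZ945 Atf3 0.33 and Ier2 0.0043.

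Leaving out 1 library at a time, the range in MG BLZ945 against CTL was -0.064 to 0.063 for Junb, -0.49 to 0.19 for Fosb and -0.19 to 0.17 for Atf3. For tdT- BLZ945 against CTL it was -0.16 to 0.23 for Btg2, -0.21 to 0.082 for Egr1, -0.52 to 0.075 for Fosb, -0.34 to 0.040 for Dusp1, -0.35 to 0.11 for Atf3 and -0.12 to 0.15 for Ier2. For tdT+ against tdT- BLZ945 it was -0.68 to 0.50 for Atf3, -0.24 to 0.45 for Fos, -0.20 to 0.36 for Jund, -0.38 to 0.31 for Junb, -0.65 to 0.40 for Btg2, -0.36 to 0.27 for Jun, -0.55 to 0.33 for Egr1, -0.48 to 0.18 for Ier2 and -0.19 to 0.58 for Dusp1. For tdT+ BLZ945 against tdT- CTL it was -0.65 to 0.40 for Btg2, -0.59 to 0.28 for Egr1, -0.85 to 0.34 for Atf3, -0.33 to 0.45 for Dusp1, -0.48 to 0.21 for Fos, -0.56 to 0.13 for Junb, -0.44 to 0.12 for Jund, -0.46 to 0.20 for Ier2 and -0.11 to 0.75 for Fosb. For tdT- against MG CTL it was -0.14 to 0.14 for Jun, -0.19 to 0.092 for Ier2 and -0.25 to 0.14 for Atf3. For tdT- against MG BLZ945 it was -0.40 to 0.093 for Atf3. For the difference of BLZ945 effects it was -0.49 to 0.36 for Fosb, -0.22 to 0.10 for Jund, -0.34 to 0.17 for Atf3, -0.27 to 0.014 for Ier2 and -0.28 to 0.13 for Btg2. For tdT+ against MG BLZ945 it was -0.85 to 0.33 for Atf3 and -0.65 to 0.0026 for Ier2.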
